A study of Mus musculus with 6 samples.

Results

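The Slc1, Slc3, Slc6, Slc7, Slc16, Slc36, Slc38 and Slc43 genes encode membrane carriers of amino acids, monocarboxylates and related small molecules, and 49 of the 11578 genes in the deposited table belong to these 8 families by their symbols. Members were all rows whose symbol starts with 1 of these family names followed by a member number, a rule that uses no measured value. The choice of these families was made with earlier results of these data known. By family they were 4 Slc1, 2 Slc3, 8 Slc6, 11 Slc7, 11 Slc16, 2 Slc36, 8 Slc38 and 3 Slc43 genes. The same naming rule matches 78 protein-coding genes of the GENCODE M21 annotation, and the other 29 were not analysed here. One of the 49, Slc7a6os, is named for its place beside Slc7a6 and is not itself a carrier.

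Polyadenylated RNA was measured in 6 kidneys from mouse embryos labelled day 17 of gestation. For all 6 libraries the protocol gives a slightly later age than the label, and which of these ages holds was not resolved. SRM deletion mutant kidneys (libraries 328, 336 and 342) were set against stage-matched kidneys that were wild type for Sall1 (libraries 330, 331 and 337). The SRM is a repression motif of Sall1, a zinc finger protein of nephron progenitors, and binds the NuRD complex, which remodels chromatin. The labels give neither strain, sex nor litter, and do not say whether the 3 kidneys of a genotype came from separate embryos, so the p-values cover only the spread among these 6 samples.

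In the kidney, amino acids filtered at the glomerulus are taken back by the proximal tubule, through apical carriers that are mostly driven by sodium and basolateral carriers that exchange or release them. Slc7 light chains reach the membrane as heterodimers with an Slc3 heavy chain. Slc38 carriers move glutamine and other small neutral amino acids, Slc36a1 and some Slc38 carriers act on lysosomes, and Slc16 carriers move lactate, pyruvate, aromatic amino acids and creatine.

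Values are the authors' scaled signal, with nearly the same total in each library (555147910 to 559251769 over the table). From the spacing of the values, depth relative to wild type 337 was put at 1.92 for mutant 336 and 1.54 for wild type 331. The other 3 libraries had no resolved spacing. Their depth was put at 3.44 or more on the assumption that their values were spaced no wider than the unit of whole numbers. That assumption was not tested, and their depth may be lower than 3.44. Below, mutants 328 and 342 and wild type 330 are called the libraries of higher depth, and the others those of lower depth. The labels name no such classes. Wild type 330 is the only wild type of the higher class and mutant 336 the only mutant of the lower class. Differences within a class therefore cannot be told apart from traits of those libraries. Across all genes wild type 330 correlated at 0.959 to 0.980 with the mutants but at 0.924 and 0.914 with wild types 331 and 337. The kidney marker lists were detected, with 17 of 17 proximal tubule genes, 6 of 6 podocyte genes and 10 of 10 ureteric bud and collecting duct genes in the table, and 0 of 10 neural genes. Kcnj1, Cited1 and Tmem100 were the listed marker genes past the threshold, all lower in mutants.

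No transporter family member passed the test over all genes. In limma 0 of 49 members had a Benjamini-Hochberg adjusted p under 0.05, where 0.285% of all genes did (33 of 11578). At an unadjusted p under 0.05 the count was 10 of 49 members, or 20.4%, where 19.0% of all genes had such a p. That share is near the background and is no result about the family. The authors' deposited table gave 8 of 49 members a p under 0.05, against 8.71% of all genes, and 0 after Benjamini-Hochberg adjustment. Of the 10 members in limma, 8 were higher in mutants, where 10.5% of all genes were (among them Slc7a8, Slc38a3, Slc7a5, Slc38a7, Slc6a9, Slc36a1 and Slc6a18) and 2 were lower, where 8.51% were (Slc38a4 and Slc16a10). The 3 mutant and 3 wild type values did not overlap in 12 members, where 19.5% of all genes showed no overlap, 10 with mutants above (11.1% of all genes) and 2 with mutants below (8.42%). These 12 were the same 10 genes plus Slc16a9 and Slc38a9.

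The log2 difference, mutant minus wild type, was above 0 in 34 members and below 0 in 15, with a median of 0.16 and a range from -0.92 for Slc38a4 to 0.97 for Slc38a7. Over all 11578 genes the difference was above 0 in 6071 and below 0 in 5507, with a median of 0.024. By family the median was 0.30 in Slc1, 0.24 in Slc3, 0.28 in Slc6, 0.0064 in Slc7, 0.10 in Slc16, 0.32 in Slc36, 0.25 in Slc38 and 0.16 in Slc43. These family medians were not stable. Without wild type 330 the Slc7 median was -0.064 and the Slc16 median 0.0039, after removal of length and GC trends the Slc43 median was -0.039, and within the libraries of higher depth the median was -0.003 in Slc1, -0.13 in Slc38, -0.075 in Slc16 and -0.0064 in Slc43. Within those of lower depth it was -0.14 in Slc7 and -0.012 in Slc16. Without wild type 337 the median of the 49 was 0.063, and on leaving out any other library it was between 0.11 and 0.24.

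**Figure D1:**
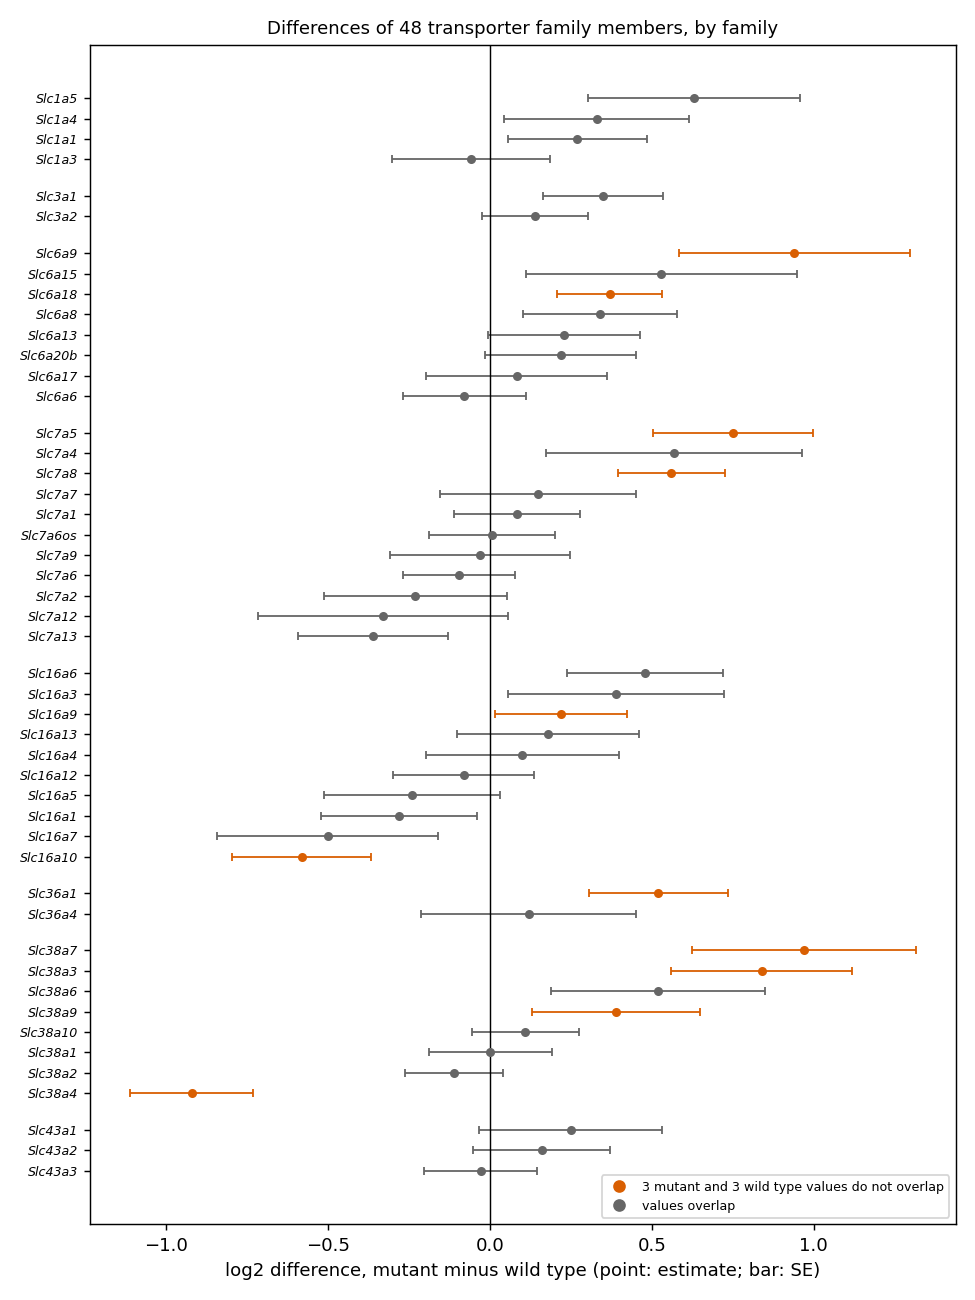
Log2 difference, mutant minus wild type, of 48 members (x axis, log2 of signal + 1; point, limma estimate; bar, SE; 3 libraries per group), grouped by family down the page. The 11 members in orange are those whose mutant and wild type values did not overlap, and Slc38a4 at -0.92 stands lowest.

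Levels between genes were compared per kilobase of transcript. The 3 highest members were Slc6a18, an apical carrier of glycine and neutral amino acids in the proximal tubule, and the heavy chains Slc3a1 and Slc3a2. Slc6a18 had a mean signal per kb of 51853 ± 6348 in mutants and 39887 ± 1138 in wild types (SD, n = 3 each). Slc3a1 had 48441 ± 8556 per kb in mutants and 37666 ± 4532 in wild types, and Slc3a2 had 43798 ± 3547 in mutants and 39890 ± 3599 in wild types (SD, n = 3 each). The spreads of these neighbours in the order overlapped within either genotype. Slc38a2 (32678 ± 749 per kb in mutants, 35325 ± 2405 in wild types) and Slc38a10 (33217 ± 3375 in mutants, 30830 ± 3895 in wild types) followed. At the other end were Slc16a7 with 474 ± 167 per kb in mutants and 660 ± 176 in wild types, and Slc38a9 with 954 ± 80 in mutants and 731 ± 86 in wild types (SD, n = 3 each). By the mean over all 6 libraries the most abundant member per kb was Slc1a5 in Slc1, Slc16a1 in Slc16, Slc36a1 in Slc36 and Slc43a3 in Slc43. In Slc7 it was Slc7a6os, but within the mutants Slc7a8 was higher, with 19230 ± 2076 per kb in mutants and 12990 ± 657 in wild types, against 17594 ± 2100 per kb in mutants and 17504 ± 1969 in wild types for Slc7a6os (SD, n = 3).

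**Figure D2:**
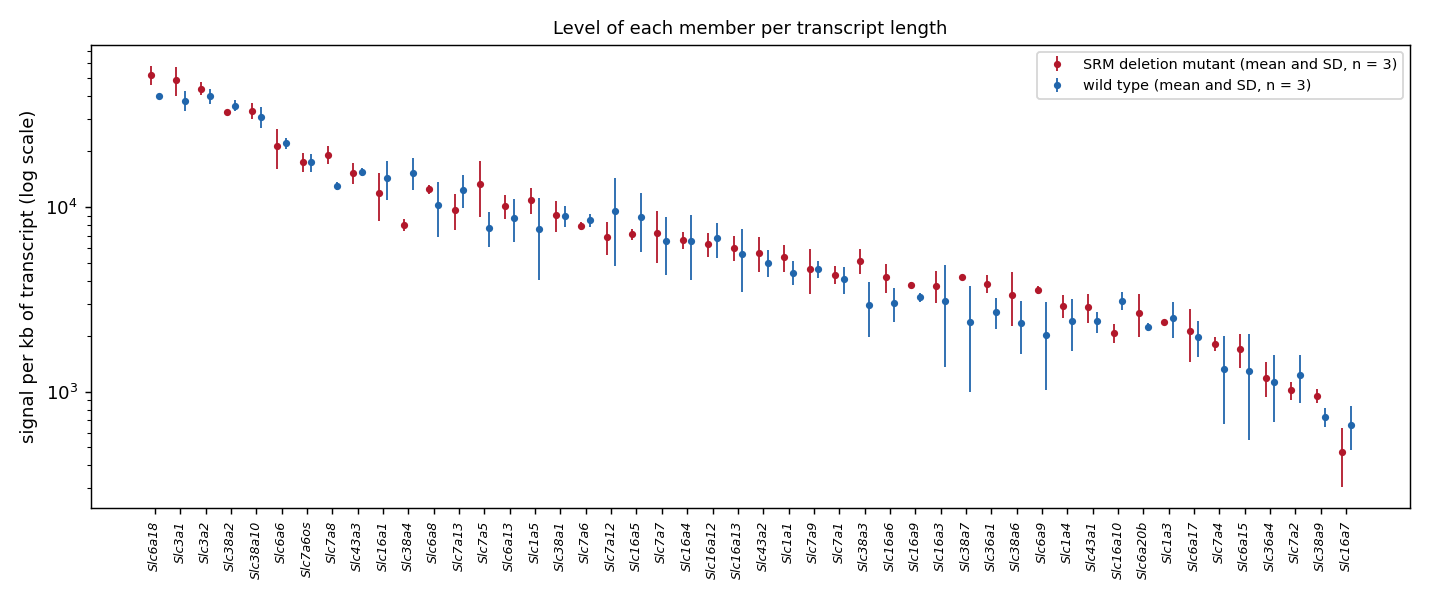
Signal per kb of transcript (log scale) of 48 members, in order of their mean over all 6 libraries, with mutants left of wild types for each gene (mean and SD, n = 3). The order runs from Slc6a18 at 51853 in mutants and 39887 in wild types to Slc16a7 at 474 in mutants and 660 in wild types.

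Among the Slc38 carriers of small neutral amino acids, Slc38a4 stood out as the lowest difference of all 49. Slc38a4 is a sodium-coupled system A carrier and, in mouse, an imprinted gene expressed from the paternal copy. Its signal was 32026, 33533 and 29162 in mutants 328, 336 and 342, against 48188, 72108 and 60814 in wild types 330, 331 and 337. Every mutant value lay below every wild type value, and wild type 330 was the nearest to the mutants. The log2 difference was -0.92 (SE 0.191, unadjusted p = 4.64e-04, limma adjusted p = 0.105). It was -1.07 with an adjusted p of 0.0032 in limma without wild type 330, and its adjusted p ran up to 0.498 on leaving out another library.

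Slc38a4 lies on chromosome 15 (96994820 to 97055956, minus strand, GRCm38), beside the system A genes Slc38a2 and Slc38a1 on the same strand. Slc38a2, which is induced when cells lack amino acids, had the highest signal of the 49 before division by length, with 150561, 149979 and 156298 in mutants 328, 336 and 342, against 168138, 152072 and 173638 in wild types 330, 331 and 337. The groups overlapped, with a log2 difference of -0.11 (SE 0.15). Slc38a1, the third of the row, was at 0.0024 (SE 0.191). The 250 bases before the start of Slc38a4 and of Slc38a2 are shown because these neighbours differ in their values and in the CG content of the sequence before the start. RefSeq's promoter table on GRCm38.p6 gives, with each CG dinucleotide in capitals, 5′ to 3′ on the minus strand, Slc38a4 at chr15:97055957-97056206 and Slc38a2 at chr15:96699729-96699978.

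Slc38a4: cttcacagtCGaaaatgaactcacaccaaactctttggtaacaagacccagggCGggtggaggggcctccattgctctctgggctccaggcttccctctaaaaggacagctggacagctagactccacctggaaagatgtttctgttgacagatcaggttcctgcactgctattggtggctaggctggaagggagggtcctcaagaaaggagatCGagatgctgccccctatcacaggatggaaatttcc

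Slc38a2: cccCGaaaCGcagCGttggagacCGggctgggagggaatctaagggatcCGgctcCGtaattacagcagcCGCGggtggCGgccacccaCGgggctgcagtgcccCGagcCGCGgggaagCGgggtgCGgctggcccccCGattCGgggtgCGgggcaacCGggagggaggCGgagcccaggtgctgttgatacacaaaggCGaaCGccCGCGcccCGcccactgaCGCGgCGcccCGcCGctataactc

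The Slc38a4 window holds 3 CG dinucleotides and that of Slc38a2 holds 30, where the median over all 32851 promoters of that length was 6. This is a description of the sequence only.

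Slc38a3, which brings glutamine into proximal tubule cells from the blood side, had a signal of 18325, 16716 and 13388 in mutants 328, 336 and 342, against 12211, 9461 and 6148 in wild types 330, 331 and 337. All mutants lay above all wild types, with mutant 342 close to wild type 330. The log2 difference was 0.84 (SE 0.279, unadjusted p = 0.0109, limma adjusted p = 0.231). Slc38a6 was at 0.52 (SE 0.331) and Slc38a10 at 0.11 (SE 0.166), both with overlapping groups.

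The carriers of the lysosomal membrane were read as a group by their known place in the cell. Slc36a1 exports small amino acids with protons, Slc38a7 exports glutamine and asparagine, and Slc38a9 senses arginine for the growth kinase complex mTORC1. Slc36a1 had a signal of 22935, 19269 and 18655 in mutants 328, 336 and 342, against 17155, 11988 and 13524 in wild types 330, 331 and 337. Its log2 difference was 0.52 (SE 0.214, unadjusted p = 0.0318, limma adjusted p = 0.249). Slc38a7 had 14319, 13655 and 14041 in the mutants, against 13148, 4589 and 6018 in the wild types in the same library order. The mutants were tight and wild type 330 lay beside them, while wild types 331 and 337 were far lower. The log2 difference was 0.97 (SE 0.346, unadjusted p = 0.0162, limma adjusted p = 0.237). Within the libraries of higher depth, which is mutants 328 and 342 against wild type 330 alone, it was 0.11. Slc38a9 was at 0.39 (SE 0.258) and Slc36a4, a high-affinity carrier of proline and tryptophan, at 0.12 (SE 0.332).

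Slc36a1 and Slc38a7 shared the E-box CACGTG, a palindrome and thus the same on both strands, near their starts, and are shown for that reason. RefSeq's table on GRCm38.p6 places the 250 bases before the start at chr11:55204090-55204339 on the plus strand for Slc36a1 and at chr8:95853492-95853741 on the minus strand for Slc38a7. The E-box is in capitals.

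Slc36a1: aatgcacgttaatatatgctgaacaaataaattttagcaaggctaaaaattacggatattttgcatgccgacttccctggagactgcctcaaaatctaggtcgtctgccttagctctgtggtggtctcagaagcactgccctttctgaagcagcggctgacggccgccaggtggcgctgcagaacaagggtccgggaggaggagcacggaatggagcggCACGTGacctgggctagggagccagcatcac

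Slc38a7: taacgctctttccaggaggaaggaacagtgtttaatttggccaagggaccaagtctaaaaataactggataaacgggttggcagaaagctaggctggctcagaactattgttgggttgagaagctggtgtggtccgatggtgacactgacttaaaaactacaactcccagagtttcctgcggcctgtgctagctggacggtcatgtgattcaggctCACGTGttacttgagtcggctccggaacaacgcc

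The motif lies 31 to 26 bases before the start of Slc36a1 and 34 to 29 bases before that of Slc38a7. Of the 31 members with a promoter in the table, 5 held it (Slc16a1, Slc16a12, Slc36a1, Slc38a7 and Slc43a1), or 16.1%, against 6.02% of all 32851 promoters. The amino acid response element TGATGNAA, searched on both strands, was in 1 of the 31, Slc7a7, against 3.45% of all promoters. For each member only 1 promoter was counted, the nearest to the gene's annotated start. The shares of all promoters were taken without that choice, so they are not of like units. A match describes these letters and not a bound site.

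**Figure D3:**
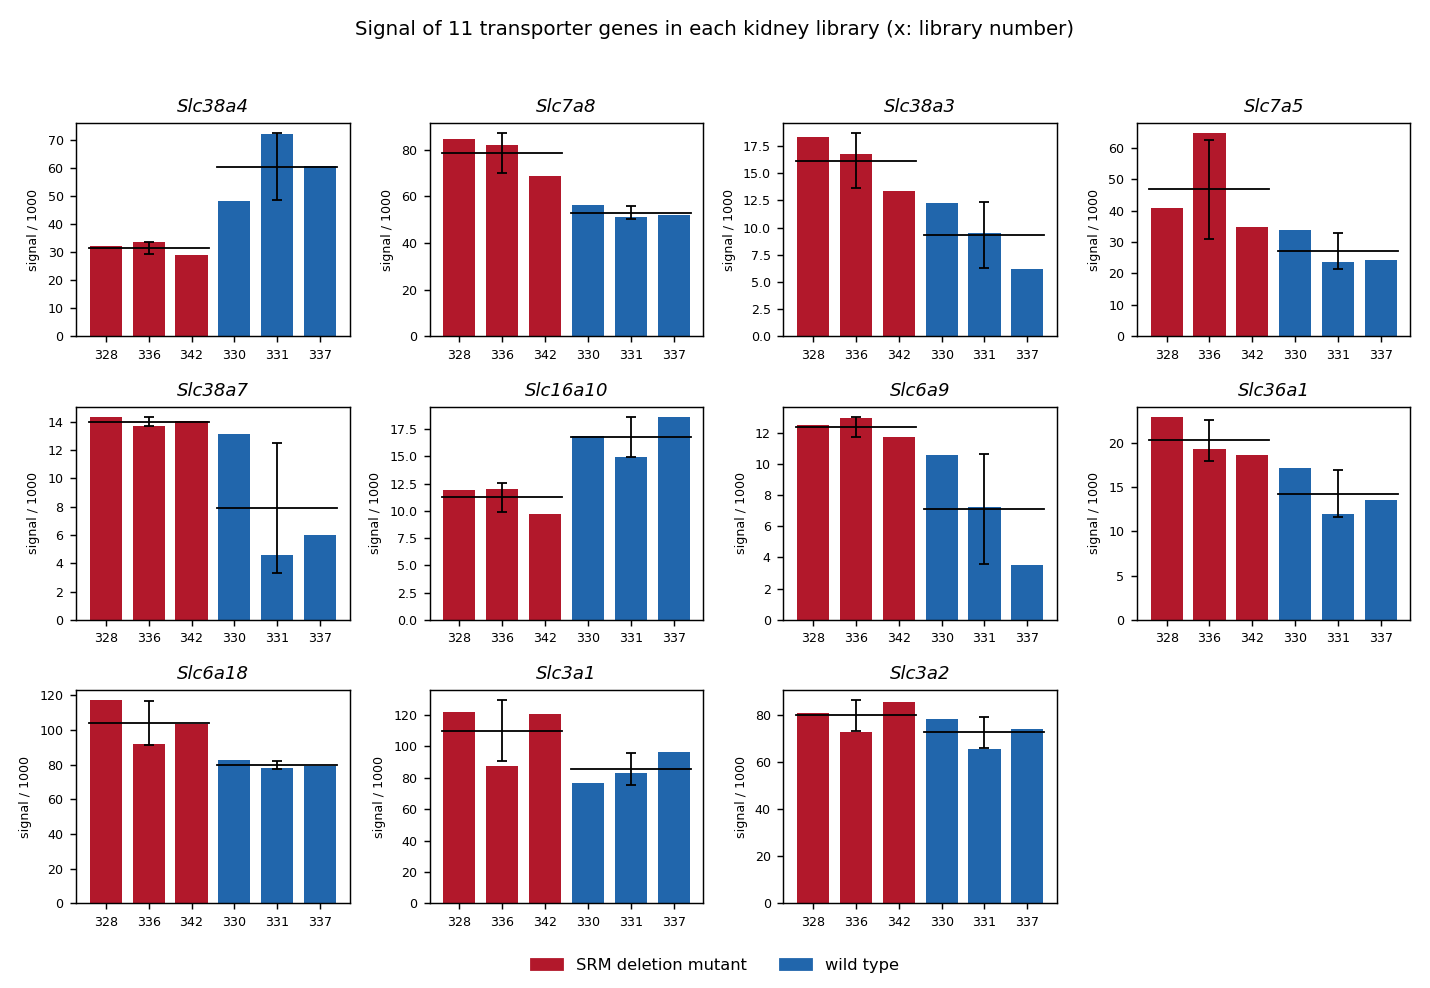
Signal divided by 1000 (y axis, from 0) in each library (x axis, library number) for 9 members with an unadjusted p under 0.05 and the heavy chains Slc3a1 and Slc3a2; mutants in red on the left, wild types in blue on the right, lines and bars showing mean and SD (n = 3). Wild type 330 stands near the mutants for Slc38a7 (13148) and Slc6a9 (10582) but not for Slc38a4, Slc7a8 or Slc16a10.

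The heavy chains themselves showed small differences. Slc3a1, which carries the cystine transporter of the apical membrane, had a signal of 121676, 87579 and 120775 in mutants 328, 336 and 342, against 76574, 83265 and 96778 in wild types 330, 331 and 337. Mutant 336 lay within the wild type range and the other 2 mutants above it, with a log2 difference of 0.35 (SE 0.184, unadjusted p = 0.0802). Slc3a2, the heavy chain of most other light chains, had 80674, 72773 and 85558 in the mutants and 78391, 65479 and 73811 in the wild types in the same order, with overlapping groups and a log2 difference of 0.14 (SE 0.163).

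Of the Slc7 light chains, Slc7a8, the basolateral exchanger of neutral amino acids in the proximal tubule, had the clearest separation. Its signal was 84643, 82103 and 68854 in mutants 328, 336 and 342, against 56125, 51171 and 51860 in wild types 330, 331 and 337. The lowest mutant stood above the highest wild type, and wild type 330 kept with the other wild types. The log2 difference was 0.56 (SE 0.165, unadjusted p = 0.00541, limma adjusted p = 0.231), with 0.44 and 0.67 within the libraries of higher and lower depth. Slc7a5, the exchanger of large neutral amino acids in growing cells, had 40804, 64533 and 34689 in the mutants and 33811, 23544 and 24260 in the wild types in the same order. Mutant 336 was the high value, and mutant 342 exceeded wild type 330 by little. The log2 difference was 0.75 (SE 0.247, unadjusted p = 0.011, limma adjusted p = 0.231), but 0.15 within the libraries of higher depth against 1.43 within those of lower depth, and 0.49 without mutant 336. An annotated gene on the other strand, Gm20388, overlaps all of Slc7a5. As no strand setting is given in the sources used here, whether reads of the 2 were kept apart is not known. Other members also overlap genes of the other strand, among them Slc1a1 over 20919 bases and Slc7a4 over 5783.

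The other Slc7 members, which are not all light chains, overlapped between genotypes. The cationic carriers Slc7a1 and Slc7a2 were at 0.084 and -0.23, and their relative Slc7a4 at 0.57 (SE 0.395). The partners of Slc3a2 that exchange cationic for neutral amino acids, Slc7a7 and Slc7a6, were at 0.15 and -0.096. The partners of Slc3a1, Slc7a9 and Slc7a13, were at -0.03 and -0.36, with signals per kb of 4640 ± 1255 and 9678 ± 2133 in mutants against 4624 ± 503 and 12400 ± 2497 in wild types (SD, n = 3). Slc7a12 was at -0.33 (SE 0.385), and here wild type 330 at 7075 lay below the mutants (14064, 9305 and 12467) while wild types 331 and 337 lay above them (21640 and 21147). Slc7a6os had a signal of 24432, 19211 and 22122 in mutants 328, 336 and 342, against 19673, 21268 and 24490 in wild types 330, 331 and 337, a log2 difference of 0.0064 (SE 0.194).

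The Slc6 family moves amino acids and related osmolytes together with sodium and chloride. Slc6a18 had a signal of 117005, 91573 and 103315 in mutants 328, 336 and 342, against 82548, 78199 and 79172 in wild types 330, 331 and 337. All mutants lay above the narrow wild type range, with a log2 difference of 0.37 (SE 0.162, unadjusted p = 0.0411, limma adjusted p = 0.256). Slc6a9, a glycine carrier, had 12493, 12952 and 11702 in the mutants and 10582, 7205 and 3527 in the wild types in the same order. The wild types spread over a wide range with 330 at its top, and the log2 difference of 0.94 (SE 0.357, unadjusted p = 0.0226, limma adjusted p = 0.243) was 0.19 within the libraries of higher depth. It was 0.50 without wild type 337 and 1.30 without wild type 330. Slc6a9 overlaps B4galt2 on the other strand over 5939 bases and Ccdc24 over 6034. The taurine carrier Slc6a6, with the highest signal of the family before division by length, was at -0.079, the creatine carrier Slc6a8 at 0.34 and the GABA carrier Slc6a13 at 0.23. Slc6a15, a carrier of branched-chain amino acids and proline, was at 0.53 (SE 0.419), the vesicular carrier Slc6a17 at 0.083 and Slc6a20b at 0.22. Slc6a20b has a close paralogue, Slc6a20a, and its value is uncertain where reads were shared.

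In the Slc1 family the groups of all 4 members overlapped. Slc1a5, a glutamine exchanger and the most abundant of them per kb, had a signal of 29021, 35471 and 26112 in mutants 328, 336 and 342, against 30248, 22631 and 10500 in wild types 330, 331 and 337. Wild type 330 lay within the mutant range and wild type 337 far below it, with a log2 difference of 0.63 (SE 0.327, unadjusted p = 0.0772). The neutral exchanger Slc1a4 was at 0.33, the apical glutamate carrier Slc1a1 at 0.27 and the glutamate carrier Slc1a3 at -0.057.

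Among the Slc16 carriers, Slc16a10 had the lowest difference. Slc16a10 carries aromatic amino acids (chromosome 10, 40033532 to 40142258, GRCm38), and its signal was 11928, 12056 and 9746 in mutants 328, 336 and 342, against 16873, 14936 and 18608 in wild types 330, 331 and 337. Its mutants all lay below its wild types, at a log2 difference of -0.58 (SE 0.214, unadjusted p = 0.0192, limma adjusted p = 0.241). Within the libraries of higher and lower depth the differences were -0.65 and -0.47.

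Among the lactate carriers, Slc16a1, the most abundant of the family per kb, had a signal of 47466, 69626 and 40542 in mutants 328, 336 and 342, against 46208, 74072 and 69463 in wild types 330, 331 and 337. The groups overlapped over nearly their whole range, with a log2 difference of -0.28 (SE 0.241). Slc16a3, the lactate exporter of glycolytic cells, was at 0.39 (SE 0.334) and Slc16a7 at -0.50 (SE 0.342). The creatine carrier Slc16a12 was at -0.08. Slc16a9 was at 0.22 (SE 0.204) with groups that did not overlap, 14181 ± 547 in mutants and 12183 ± 670 in wild types (SD, n = 3). The authors' deposited table gave this gene p = 0.0162, and limma gave an unadjusted p of 0.302. Slc16a6, a ketone body carrier, was at 0.48 (SE 0.241), Slc16a13 at 0.18, Slc16a4 at 0.10 and Slc16a5 at -0.24.

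The Slc43 family gave no separated group. Slc43a3, its most abundant member per kb, had a signal of 34149, 44264 and 39977 in mutants 328, 336 and 342, against 37661, 40451 and 42034 in wild types 330, 331 and 337, a log2 difference of -0.028 (SE 0.175). The carriers of large neutral amino acids Slc43a1 and Slc43a2 were at 0.25 and 0.16.

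Genes that work with these carriers were listed separately. Among the partner subunits 6 were measured, of which 0 passed over all genes in limma and 1 had an unadjusted p under 0.05. That was Emb, an escort of lactate carriers, which averaged 25050 ± 591 in mutants and 36664 ± 8033 in wild types (SD, n = 3) and had a log2 difference of -0.52 (SE 0.203). Bsg, the usual escort of Slc16a1, was at -0.16, and Tmem27, a partner of Slc6 carriers, at -0.20. Tmem27 was at 0.25 within the libraries of higher depth and at -0.71 within those of lower depth. Of the 6, 4 were below 0 and 2 above it, Pdzk1 at 0.36 (SE 0.205) and Slc9a3r1 at 0.31 (SE 0.237). Of 5 other carriers of monocarboxylates and peptides 0 passed and 1 had an unadjusted p under 0.05, the peptide carrier Slc15a2 at -0.59 (SE 0.231).

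Of 18 amino acid response genes in the table, 0 passed over all genes in limma and 3 had an unadjusted p under 0.05, Ddit3 at 0.90 (SE 0.375), Ddit4 at 0.84 (SE 0.288) and Eprs, a tRNA synthetase, at -0.45 (SE 0.164). Their median was -0.018. Of 15 glycolysis genes 0 had an unadjusted p under 0.05 in limma, and their median was 0.14. That median was -0.17 after removal of length and GC trends, -0.27 within the libraries of higher depth and 0.36 without wild type 330. Of 12 genes of creatine and glutamate metabolism 0 passed and 3 had such a p, all higher, namely Gatm, which makes the creatine precursor (0.64, SE 0.212), Ckb, a creatine kinase (0.95, SE 0.313), and Gpt, alanine aminotransferase (1.11, SE 0.433). Each of these counts stands beside 19.0% of all genes with such a p.

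Markers of the cells that hold many of these carriers, and of other cells of the kidney, are given beside these values. Of 17 proximal tubule genes 8 had an unadjusted p under 0.05 in limma, all higher in mutants, with 0 past the threshold over all genes. Their signal summed to 2226192 to 3428806 in mutants and to 1888696 to 2521456 in wild types, and none was at 0. The shares of all genes were 10.5% higher and 8.51% lower by that count. Of 6 macrophage genes 4 were higher at such a p, with sums of 79556 to 84844 in mutants and 48558 to 51759 in wild types. Of 7 thick ascending limb genes 1 was higher and 3 lower at that p, with sums of 331204 to 382577 in mutants and 479409 to 526123 in wild types. Of 8 nephron progenitor genes 1 was higher and 3 lower at that p, among them Cited1 and Tmem100, and sums were 161941 to 195232 in mutants and 176807 to 252324 in wild types. At the same p 2 of 8 endothelial genes were higher and 1 lower, 1 of 8 stromal and 1 of 6 podocyte genes were higher, and 2 of 10 ureteric bud and collecting duct genes were lower. Erythroid sums overlapped, at 1398146 to 2961326 in mutants and 1642122 to 2605311 in wild types. The part of these markers in the differences of Slc6a18, Slc7a8, Slc3a1 and the other members was not tested, and in whole kidneys fewer cells of a type and less RNA per cell cannot be told apart.

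The differences within the depth classes were set side by side. The higher class held mutants 328 and 342 and wild type 330, and the lower class mutant 336 and wild types 331 and 337. Of the 49 members 26 had the same sign in both classes, where 7541 of all 11578 genes did. The sign could not differ for the 12 members whose groups did not overlap. Slc38a4 was at -0.66 and -0.98 in the higher and lower class, Slc6a18 at 0.41 and 0.22, Slc36a1 at 0.27 and 0.60, and Slc38a3 at 0.36 and 1.13. The signs were opposite for Slc7a12 (0.90 and -1.20), Slc16a4 (0.92 and -0.44), Slc7a13 (0.17 and -0.88), Slc16a3 (-0.62 and 1.13), Slc1a5 (-0.14 and 1.20) and Slc3a1 (0.66 and -0.036). Each class has 1 library on one side, so these values carry no test.

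**Figure D4:**
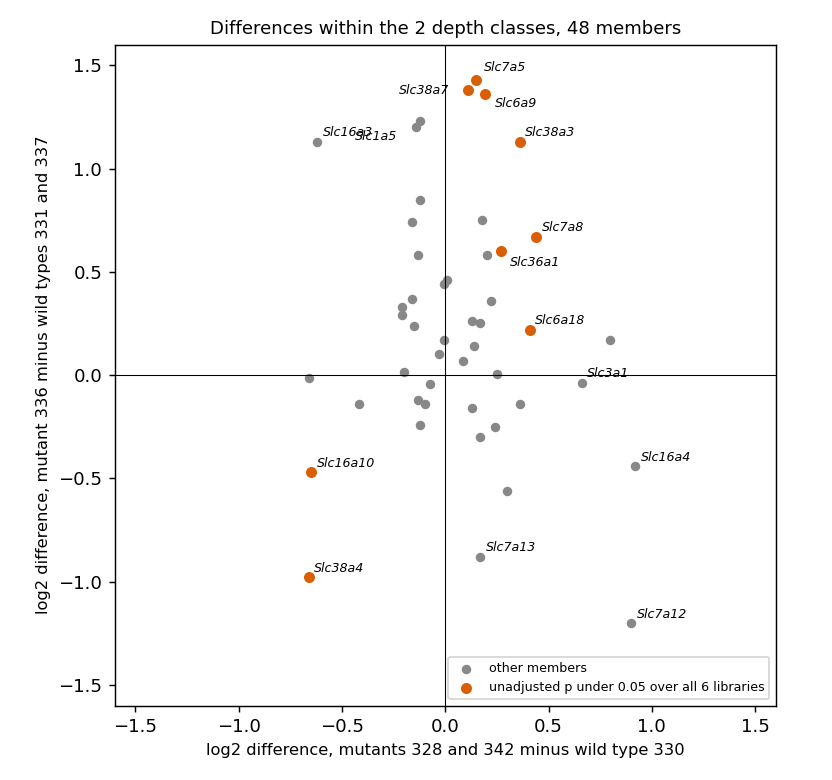
Log2 difference within the higher depth class (x axis, mutants 328 and 342 minus wild type 330) against that within the lower depth class (y axis, mutant 336 minus wild types 331 and 337) for 48 members, with 9 members of unadjusted p under 0.05 in orange. Slc7a8, Slc38a4 and Slc16a10 lie away from 0 on both axes, whereas Slc7a5, Slc38a7 and Slc6a9 lie close to 0 on the x axis.

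One wild type library decided the number of calls. Without wild type 330, 10 of 49 members passed over all genes in limma, or 20.4%, where 26.7% of all genes did (3095 of 11578). Of these, 8 were higher in mutants (14.4% of all genes) and 2 lower (12.3%). The log2 differences and adjusted p were -1.07 and 0.0032 for Slc38a4, 1.41 and 0.00414 for Slc38a7, 1.07 and 0.0137 for Slc38a3, and 1.30 and 0.0137 for Slc6a9. They were 0.91 and 0.0181 for Slc7a5, 0.60 and 0.0197 for Slc7a8, -0.86 and 0.0196 for Slc7a12, and 0.83 and 0.0248 for Slc16a3. Slc1a5 gave 0.96 and 0.0301, and Slc36a1 0.67 and 0.0322. Wild type 330 lay nearer on the log2 scale to the mean of the mutants than to the mean of the other wild types in 30 of 49 members, or 61.2%, and in 75.8% of all genes. Slc38a4, Slc7a8, Slc16a10 and Slc6a18 were among those where it lay nearer to the other wild types.

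The differences also ran with the GC content of the transcripts. Across the 49 members the log2 difference correlated with GC content at a Pearson r of 0.586 (Spearman 0.571), and across 11518 genes at 0.628. Genes share the same 6 libraries and are not independent, so this describes the table and has no p. Within the lower depth class r was 0.645 among members and 0.593 across 11518 genes. Within the higher class it was -0.138 among members and 0.201 across those genes. All 8 members with an unadjusted p under 0.05 and a higher value in mutants were among the 26 members with over 50% GC. The 2 lower ones were among the 23 with at most 50%. The same split was not counted over all genes, where r was 0.628, so it is no result about the members. After a trend on length and GC content was removed from each library, Slc38a4 was at -0.64 (unadjusted p = 4.76e-04, limma adjusted p = 0.0795), Slc7a8 at 0.38 (adjusted p = 0.28) and Slc16a10 at -0.48 (adjusted p = 0.341). Slc7a5 was then at 0.39, Slc38a7 at 0.66, Slc6a9 at 0.55, Slc36a1 at 0.31 and Slc6a18 at 0.20. No member passed, where 0.443% of all genes did, and the median of the 49 was 0.14, where that of all genes was -0.017.

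**Figure D5:**
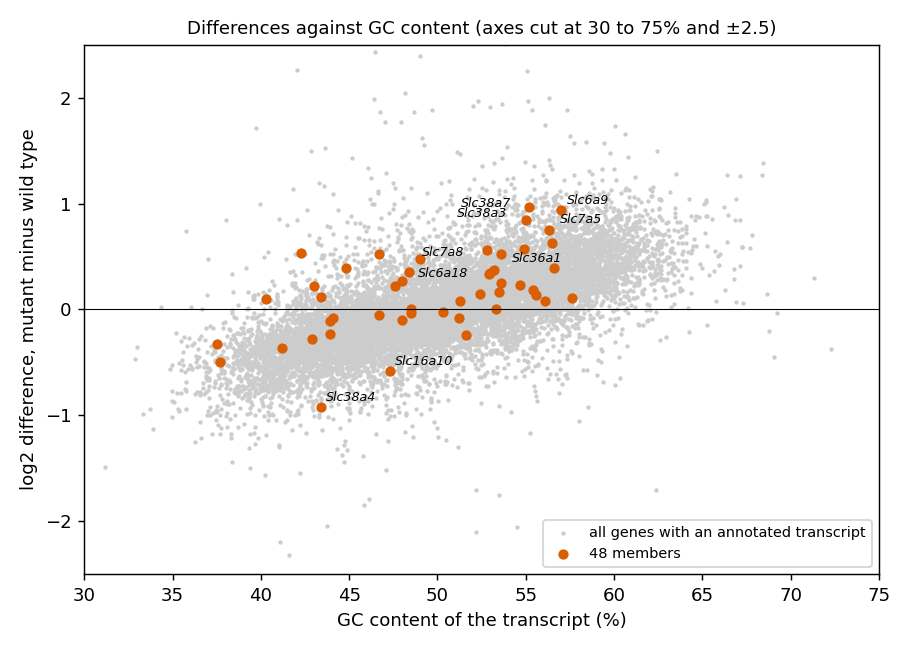
Log2 difference, mutant minus wild type (y axis), against GC content of the transcript in percent (x axis) for 11504 genes in grey and 48 members in orange, with 9 members of unadjusted p under 0.05 named. Points climb from left to right, with Slc38a4 and Slc16a10 below the trend. Slc38a7, Slc38a3 and Slc6a9 are the highest of the members shown, and other genes of similar GC content lie above them.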

How the data were processed

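The deposited signal is given in whole numbers, which the authors had brought to almost the same sum in every library. Per the submitters' processing notes the build was mm10 and bedtools was used, and per the labels' protocols the libraries were made from 4 to 5 µg of total RNA with the Ion Total RNA-seq v2 kit. Aligner, annotation and scaling: not given in the sources used here. The authors' deposited table also holds a ratio of group means, log2 values of means and ratio, and a p-value. The lowest mean signal of a gene was 3146. As read counts were not used here, no interval for counting error is given, and depth was estimated only relative to wild type 337, from the periodicity of values below 60000. A spacing was taken as resolved at a periodicity of at least 0.3, and libraries without one form the higher depth class. Their lower limit of depth rests on an assumed spacing and not on a measured one.

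All 11578 genes were fitted with limma 3.58.1 in R 4.3.3 on log2(signal + 1), with a variance trend and Benjamini-Hochberg adjustment over all genes. A minimum of 1 in 3 libraries removed 0 genes. The threshold was an adjusted p of 0.05, and differences are on this log2(signal + 1) scale. The code of the fit was tested on simulated data with independent noise for each gene. These lacked the library, depth and GC patterns described above, so that test does not bear on them. Length and GC content are those of the principal GENCODE M21 transcript on GRCm38 (mm10), found for 11518 genes by symbol (10951) or synonym (567), and for all 49 members by symbol. Promoters came from RefSeq and were found for 31 members. Members and lists were chosen with earlier results of these data known. Every member but 1, which enters the counts and is not reported here by itself, is named, with values in all libraries for those with an unadjusted p under 0.05, the heavy chains and the most abundant member of each family. Alternatives were another pseudocount, quantile and median scaling, a minimum mean signal of 10000, no filter, no variance trend, depth class as a covariate, removal of length and GC trends by splines with 4 degrees of freedom, each library left out, and the authors' test.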

Additional observations from a re-analysis of the deposited data

How the results depend on the processing

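No paired analysis was possible because the groups share no replicate number. Of 49 members, 26 kept their direction in all 14 alternative limma fits that held them, among them the 10 with an unadjusted p under 0.05, whose direction most fits could not turn because their groups do not overlap. The number of members past the threshold was 0 in every fit but that without wild type 330, which gave 10, so it ran from 0 to 10 on leaving out 1 library. The number of all genes past it, 33, ran from 2 without mutant 328 to 3095 without wild type 330, and was 51 after removal of length and GC trends and 0 by the authors' test. The median of the members, 0.16, ran from 0.063 without wild type 337 to 0.24 without wild type 331. No-filter and main fits are the same, since the filter removed 0 genes.

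Direction turned in 23 members. With quantile normalization Slc7a6os was at -0.0052, and with medians shifted to 0 Slc38a1 was at -0.0023. When depth class entered as a covariate, Slc43a3 was at 0.037, Slc6a6 at 0.043, Slc7a6os at -0.0038 and Slc7a7 at -0.12. After removal of length and GC trends 17 turned: Slc16a1 (0.023), Slc16a12 (0.16), Slc16a13 (-0.13), Slc16a7 (0.057), Slc1a3 (0.062), Slc38a10 (-0.29), Slc38a2 (0.15), Slc3a2 (-0.15), Slc43a2 (-0.039), Slc6a13 (-0.027), Slc6a17 (-0.25), Slc7a1 (-0.0062), Slc7a12 (0.27), Slc7a13 (0.037), Slc7a2 (0.029), Slc7a6os (-0.12) and Slc7a9 (0.035). Before that removal Slc16a7 was at -0.50, Slc7a13 at -0.36, Slc7a12 at -0.33 and Slc16a1 at -0.28. After it Calb1, a distal tubule and collecting duct gene, also turned (0.096). So did the medians of the glycolysis (-0.17), stroma (-0.007), endothelium (-0.045) and partner subunit (0.035) lists. Leaving out 1 library gave ranges across 0 for Slc43a3 (-0.11 to 0.072), Slc7a6os (-0.075 to 0.098), Slc7a7 (-0.066 to 0.43), Slc16a12 (-0.27 to 0.042), Slc38a1 (-0.14 to 0.12), Slc6a17 (-0.14 to 0.33), Slc7a9 (-0.18 to 0.22), Slc6a6 (-0.27 to 0.073), Slc16a4 (-0.27 to 0.34), Slc1a3 (-0.15 to 0.12), Slc7a1 (-0.026 to 0.21), Slc16a13 (-0.10 to 0.45) and Slc36a4 (-0.12 to 0.42). The cause was not tested.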
